A study of Mus musculus with 6 samples.

Results

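Interferon-stimulated genes and the sensors that detect foreign RNA or DNA were read in germ cells of Dnmt3A KO/KO mice and compared with those of WT/WT mice, to ask whether loss of this de novo DNA methyltransferase evokes viral mimicry. The 33 genes form a list of names: 16 interferon-stimulated effectors, 7 sensors of RNA or DNA with their adaptor, 7 receptor subunits and transcription factors, and 3 genes that edit or clear the cell's own nucleic acids. All 33 were found among the 54087 gene rows of the count tables. The tables hold 3 KO/KO and 3 WT/WT libraries of total RNA from male C57BL/6 mice at 10 days post partum. Cells of both genotypes came from the bright and medium gates of the Id4-GFP reporter, which marks undifferentiated spermatogonia and approximates spermatogonial stem cells. The labels give neither the design of the KO allele, nor a Cre driver, nor whether the samples came from separate animals. The p-values below therefore measure only the spread between these samples, which may be technical.

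Type I interferons are secreted proteins that bind the receptor pair IFNAR1 and IFNAR2 and, through JAK kinases and the transcription factors STAT2 and IRF9, switch on a large set of antiviral genes. Cells start the response themselves when sensors such as RIG-I, MDA5 or cGAS meet double-stranded RNA or DNA in the cytoplasm. Viral mimicry is the name for the case in which the trigger is the cell's own nucleic acid, often transcripts of endogenous retroviruses that have lost DNA methylation. In male germ cells, DNA methylation is one of the systems that keep such repeats silent.

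Some promoters of these genes carry the letters through which interferon is known to act. The interferon-stimulated response element was searched as 2 copies of GAAA with any 2 bases between them, or of TTTC for the other strand, in the window from 250 bases before to 50 after the start of each gene (RefSeq, GRCm38.p6). Promoters were listed for 26 of the 33 genes, and Oas2, Mx1, Mx2, Usp18, Rtp4, Dhx58 and Zbp1 had no entry. The element was found in 31.2% of the 32 promoters of these 26 genes, against 3.44% of all 32851 promoters of the table. The gamma-activated site, searched as TTCNNNGAA, which reads alike on both strands, was in 28.1% of the 32 and in 8.30% of all, and overlapped the response element in 1 of the 32. The 4 stretches below are shown because they belong to the 1 gene that both carries the element and passed the test, Rsad2, and to 3 classical effectors with the element that had too few reads to be tested. They read 5′ to 3′ on the strand of the gene, and the capitals mark the element, with overlapping copies merged. The Rsad2 stretch is chr12:26456533-26456602 on the minus strand, Isg15 is chr4:156200845-156200926 on the minus strand, Ifit1 is chr19:34640755-34640843 and Ifit3 is chr19:34583343-34583446, both on the plus strand.
Rsad2: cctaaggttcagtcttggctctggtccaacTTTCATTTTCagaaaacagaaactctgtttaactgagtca
Isg15: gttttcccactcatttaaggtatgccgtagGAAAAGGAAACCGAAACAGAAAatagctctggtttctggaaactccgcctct
Ifit1: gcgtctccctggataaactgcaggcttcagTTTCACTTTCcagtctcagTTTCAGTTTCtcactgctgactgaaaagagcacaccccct
Ifit3: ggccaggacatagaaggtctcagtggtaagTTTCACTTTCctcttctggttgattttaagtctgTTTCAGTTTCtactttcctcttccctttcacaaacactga
The first copy begins 120 bases before the start of Rsad2, 78 before that of Isg15, 104 before that of Ifit1 and 156 before that of Ifit3. A match of letters is a description of the window and not evidence of a bound site.

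The other 2 genes past the test, Ifnar2 and Samhd1, had no interferon-stimulated response element in their windows. Each had 1 match to the gamma-activated site, of which Rsad2 had none. The promoters of Ifnar2 and Samhd1 are shown for their CpG dinucleotides, the sites at which DNMT3A adds methyl groups, which are in capitals. The 150 bases before each start are chr16:91372633-91372782 on the plus strand for Ifnar2 and chr2:157135097-157135246 on the minus strand for Samhd1.
Ifnar2: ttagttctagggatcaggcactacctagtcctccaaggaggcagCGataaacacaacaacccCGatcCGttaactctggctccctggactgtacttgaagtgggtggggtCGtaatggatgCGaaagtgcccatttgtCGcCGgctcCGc
Samhd1: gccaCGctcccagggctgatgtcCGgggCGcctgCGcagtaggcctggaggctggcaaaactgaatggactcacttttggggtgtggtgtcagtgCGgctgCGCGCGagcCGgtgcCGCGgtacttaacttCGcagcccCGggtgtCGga
The stretch of Ifnar2 holds 8 CpG dinucleotides and that of Samhd1 holds 14. Over the whole 300-base window Samhd1 had 29, Ifnar2 18 and Rsad2, Isg15, Ifit1 and Ifit3 had 6, 6, 4 and 1. The median was 10 in the 32 promoters of these genes, 19 in promoters of all genes tested and 7 in all promoters. Methylation itself was not measured in these files.

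Counts on genes summed to between 43951664 and 61749155 in the KO/KO libraries and between 42681201 and 48423509 in the WT/WT libraries. Dnmt3a had 90.2, 104 and 99.5 CPM (counts per 1000000 gene counts) in the KO/KO libraries and 215, 193 and 188 CPM in the WT/WT libraries. Its log2 fold change, KO/KO over WT/WT, was -1.02 (SE 0.09, edgeR adjusted p = 0.000222), and the counts of the whole gene do not show which exons the remaining reads came from. On the first principal component the KO/KO libraries lay at 29.2, 57.6 and 64.5 and the WT/WT libraries at -48.7, -48.5 and -54.2, so KO/KO replicate 1 stood nearest to WT/WT. Results that rest on this library are given with and without it. Germ cell markers such as Ddx4 and Dazl were abundant in every library, with a summed level over 12 markers between 2001 and 2252 CPM in KO/KO and between 2254 and 2345 CPM in WT/WT. Of the 12, Id4, the gene of the sorting reporter, Gfra1 and Nanos2 rose and Zbtb16, Sall4 and Uchl1 fell. Of all genes tested, 8.33% were higher and 6.42% lower. Nanos2 and Sall4 lost the call in at least 1 of the alternative settings. The part of these shifts in the results below was not tested. Id4 had 86.7, 176 and 159 CPM in KO/KO and 36.9, 38.0 and 38.4 CPM in WT/WT (log2 fold change 1.89, SE 0.22, edgeR adjusted p = 0.000814).

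The interferon and sensing genes did not rise together in the KO/KO cells. Of the 33 genes, 27 passed the filter on low counts, 3 rose and none fell (edgeR quasi-likelihood test, adjusted p under 0.05). The 3 were Ifnar2, a receptor subunit, Samhd1, an enzyme that degrades dNTPs, and Rsad2, an antiviral effector. Over all 21314 genes tested, 1776 or 8.33% were higher and 1368 or 6.42% were lower. In this fit the 3 of 27, 11.1%, lie near that background. The median log2 fold change was -0.03 over the 27 genes and 0.00 over all genes, with 12 genes above and 15 below 0. At an unadjusted p under 0.05, 6 of the 27 were higher and 6 lower, against 3378 higher and 2906 lower of all 21314 genes tested. DESeq2 called 4 higher and none lower, against 10.5% and 7.97% of all genes, and limma-voom 3 higher and none lower, against 7.60% and 6.58%. Without KO/KO replicate 1 the count that rose was 6 of 28 tested, with Bst2, Ifit2 and Tlr3 added, against 8.88% of all genes. Without KO/KO replicate 2, Irf1 and Oasl2 of 28 tested were called lower, against 5.96% of all genes. Without KO/KO replicate 3 Oasl1 was, against 4.83%. Without WT/WT replicate 1, 2 or 3 the same 3 genes rose, of 27, 27 and 28 tested, against 4.85%, 3.68% and 3.99% of all genes. Libraries did not overlap for 11 of the 27 genes. KO/KO was above for 5, or 18.5%, against 18.2% of all genes tested, and below for 6, or 22.2%, against 17.5%.

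**Figure D1:**
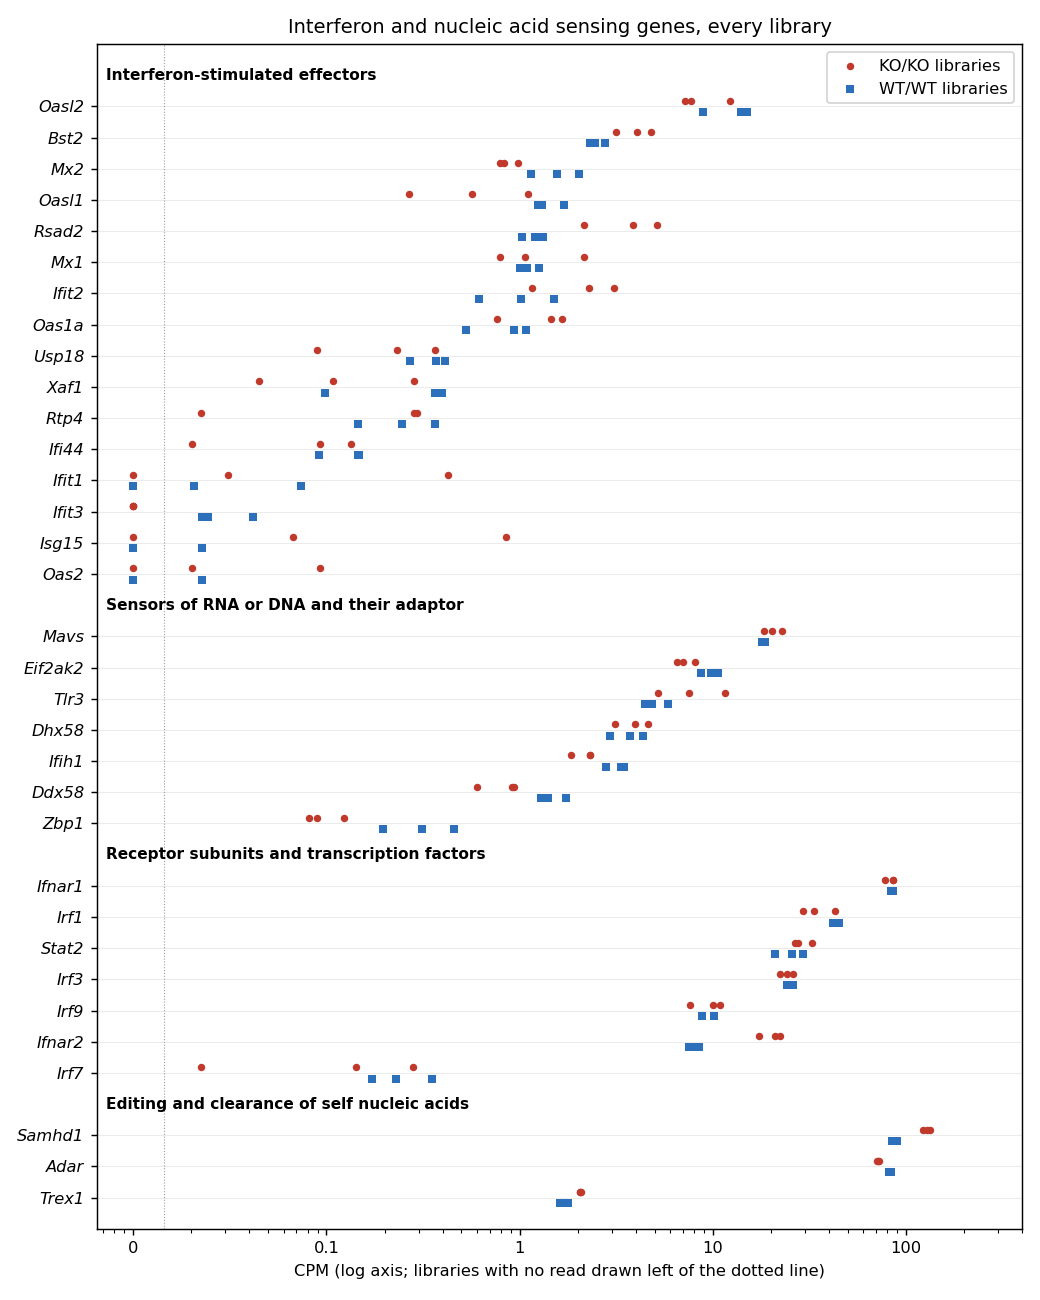
The CPM (log axis) of each of the 33 genes in each library, by role, with KO/KO as red circles above WT/WT as blue squares; libraries with no read are drawn left of the dotted line. The circles of Ifnar2, Samhd1 and Rsad2 lie to the right of their squares, those of Ddx58, Ifih1 and Eif2ak2 to the left, and Isg15 and Ifit1 each have 1 circle far from the rest.

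**Figure D2:**
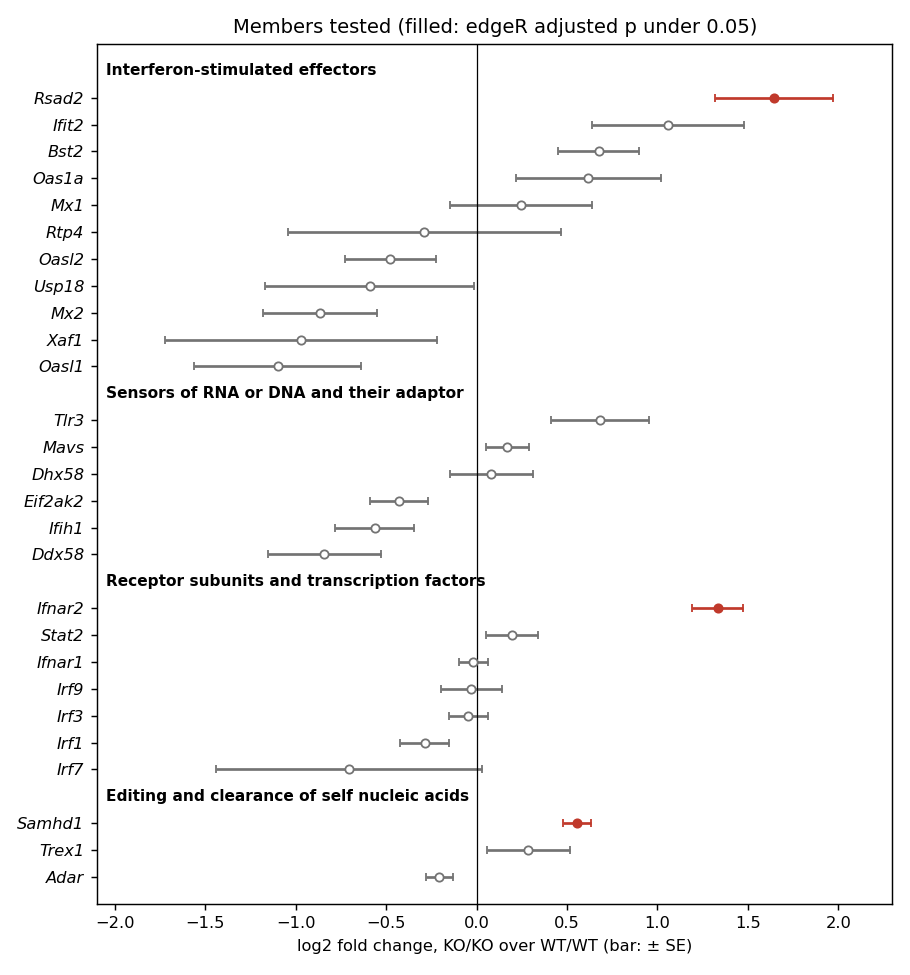
The log2 fold change, KO/KO over WT/WT, of the 27 genes tested, by role, with bars of ± 1 SE from 3 libraries per genotype; filled points passed the edgeR test at an adjusted p under 0.05. The 3 filled points lie to the right of 0, and the open points lie on both sides in every role.

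Of the 7 receptor subunits and transcription factors, all tested, Ifnar2 rose and none fell, with none lower at an unadjusted p under 0.05 or by DESeq2 or limma-voom. Over all genes tested, 8.33% were higher and 6.42% lower by edgeR, and a share of 7 genes says little about the role. Ifnar2 (chr16:91372783-91405589, plus strand, GRCm38) had 17.3, 20.9 and 22.1 CPM in the KO/KO libraries and 8.01, 7.52 and 8.43 CPM in the WT/WT libraries. Every KO/KO library stood above every WT/WT library, and the log2 fold change was 1.33 (SE 0.14, n = 3 per genotype, edgeR adjusted p = 0.000581). Exons of the predicted gene Gm21970 cover 9.46% of the exon bases of Ifnar2 on the same strand, so part of its counts could be shared. Its partner Ifnar1, which lies 79649 bases further along chromosome 16, had 85.3, 85.9 and 77.6 CPM in KO/KO and 83.2, 83.4 and 85.4 CPM in WT/WT. The genotypes overlapped for Ifnar1, with a log2 fold change of -0.02 (SE 0.08, edgeR adjusted p = 0.905). Il10rb, a subunit of the interferon lambda and interleukin-10 receptors that begins 575 bases after Ifnar2, had 4.31, 5.19 and 5.33 CPM in KO/KO and 5.18, 3.88 and 3.55 CPM in WT/WT, which missed the threshold (edgeR adjusted p = 0.498).

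Irf9, the DNA-binding partner of STAT2, had 9.96, 10.9 and 7.61 CPM in KO/KO and 10.2, 10.1 and 8.80 CPM in WT/WT. Stat2 had 26.6, 32.7 and 27.6 CPM in KO/KO and 29.4, 25.7 and 20.9 CPM in WT/WT. Both overlapped between genotypes, with log2 fold changes of -0.03 (SE 0.17) and 0.19 (SE 0.14) and edgeR adjusted p of 0.931 and 0.415. Irf3, the factor that sensors activate first, stood at 24.2 ± 1.93 CPM in KO/KO and 25.0 ± 0.876 CPM in WT/WT (SD, n = 3 each; edgeR adjusted p = 0.816). Irf1, which interferon gamma induces, had 33.3, 42.9 and 29.4 CPM in KO/KO and 44.8, 42.4 and 41.7 CPM in WT/WT, a log2 fold change of -0.29 (SE 0.14, edgeR adjusted p = 0.193). It overlapped only through KO/KO replicate 2, and without that library its edgeR adjusted p was 0.0195. Irf7, which amplifies the response and is itself induced by interferon, had 1, 7 and 18 reads in KO/KO and 10, 17 and 7 reads in WT/WT. No difference was detected, with a log2 fold change of -0.71 (SE 0.73, edgeR adjusted p = 0.571), and at that depth small differences could be missed.

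The sensors were a group in which no gene passed the test, and those tested detect RNA or relay its signal. Aim2, Tmem173 and Mb21d1, which serve DNA sensing, are in the other lists, where they rose. Of 7 genes 6 were tested, and neither edgeR, DESeq2 nor limma-voom called any. At an unadjusted p under 0.05, 1 sensor was higher and 3 were lower, against 3378 and 2906 of all 21314 genes tested. Mavs, the mitochondrial adaptor through which the RNA helicases signal, was the most abundant per length and had 18.4, 20.1 and 22.9 CPM in KO/KO and 18.7, 17.9 and 18.0 CPM in WT/WT. Its genotypes overlapped, with a log2 fold change of 0.17 (SE 0.12, edgeR adjusted p = 0.389).

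For 3 of the 6 sensors tested the libraries did not overlap, with KO/KO below, as for 17.5% of all genes tested. Ddx58, which encodes RIG-I, had 0.603, 0.932 and 0.915 CPM in KO/KO and 1.73, 1.29 and 1.40 CPM in WT/WT, a log2 fold change of -0.84 (SE 0.31, edgeR adjusted p = 0.104). Ifih1, which encodes MDA5, the sensor of long double-stranded RNA, had 1.85, 2.31 and 2.33 CPM in KO/KO and 3.47, 3.34 and 2.79 CPM in WT/WT (-0.56, SE 0.22, edgeR adjusted p = 0.117). Eif2ak2, which encodes PKR, the kinase that halts translation on double-stranded RNA, had 8.11, 6.51 and 7.01 CPM in KO/KO and 10.6, 8.66 and 9.83 CPM in WT/WT (-0.43, SE 0.16, edgeR adjusted p = 0.104). None of these 3 differences passed the test in any of the 12 alternative settings. Dhx58, which encodes the regulatory helicase LGP2, stood at 3.88 ± 0.747 CPM in KO/KO and 3.68 ± 0.697 CPM in WT/WT (SD, n = 3 each).

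Tlr3, the endosomal receptor of double-stranded RNA, had 5.18, 11.6 and 7.55 CPM in KO/KO, against 4.86, 5.84 and 4.46 CPM in WT/WT. KO/KO replicate 1 lay within the WT/WT range, and the log2 fold change of 0.68 (SE 0.27) had an edgeR adjusted p of 0.127. Without KO/KO replicate 1 Tlr3 passed the test, with an edgeR adjusted p of 0.0297. Zbp1, a sensor of Z-form nucleic acid that triggers necroptosis, did not pass the filter, with 4, 4 and 8 reads in KO/KO and 20, 15 and 8 reads in WT/WT. The ratio of its summed rates, KO/KO over WT/WT, was 0.311 (95% exact interval 0.164 to 0.564, counting error only).

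The effectors did not separate the genotypes as a group. Their summed level overlapped, at 17.6, 31.1 and 24.1 CPM in KO/KO and 25.1, 26.2 and 18.9 CPM in WT/WT. Of 16 effectors 11 were tested, 1 rose and none fell, with a median log2 fold change of -0.29. The 1 of 11, or 9.09%, lies near the 8.33% higher of all genes tested, of which 6.42% were lower. At an unadjusted p under 0.05, 3 were higher and 2 lower, against 3378 and 2906 of all 21314 genes tested. DESeq2 called 2 higher and none lower, against 10.5% and 7.97% of all genes. With limma-voom 1 was higher and none lower, against 7.60% and 6.58% of all genes.

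Rsad2 (chr12:26442746-26456452, minus strand, GRCm38) encodes viperin, an enzyme that blocks the replication of many viruses. It had 96, 253 and 248 reads, or 2.14, 5.13 and 3.85 CPM, in KO/KO and 45, 58 and 54 reads, or 1.03, 1.20 and 1.32 CPM, in WT/WT. The lowest KO/KO library was above the highest WT/WT library, and the log2 fold change was 1.65 (SE 0.33, edgeR adjusted p = 0.00983, between 2.76e-06 and 0.0488 over the 12 alternatives). Cmpk2, which lies 12752 bases from Rsad2 and is often induced with it, had 1.03, 1.34 and 1.24 CPM in KO/KO and 1.07, 0.748 and 1.20 CPM in WT/WT. The genotypes overlapped for Cmpk2 (edgeR adjusted p = 0.631).

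The effectors most used as signs of an interferon response had few reads in any library. Isg15, a ubiquitin-like modifier, had 3, 42 and 0 reads in KO/KO and 1, 0 and 0 reads in WT/WT, so 42 of the 45 KO/KO reads were in replicate 2. The ratio of its summed rates was 37.7 (95% exact interval 6.42 to 1521, counting error only, which leaves out the spread between libraries). Isg15 was called only when no filter on low counts was used (edgeR adjusted p = 0.00329). Ifit1, which binds viral RNA by its 5′ end, had 0, 21 and 2 reads in KO/KO and 0, 1 and 3 reads in WT/WT, again with KO/KO replicate 2 apart. Its relative Ifit3 had no read in KO/KO and 1, 2 and 1 reads in WT/WT, and its near-identical copy Ifit3b makes these counts uncertain. Oas2, which makes the second messenger that activates RNase L, had 0, 1 and 6 reads in KO/KO and 1, 0 and 0 reads in WT/WT. Ifi44 had 6, 1 and 6 reads in KO/KO and 4, 7 and 6 reads in WT/WT. For scale, 3 reads correspond to between 0.0465 and 0.0670 CPM in a KO/KO library and between 0.0623 and 0.0735 CPM in a WT/WT library.

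**Figure D3:**
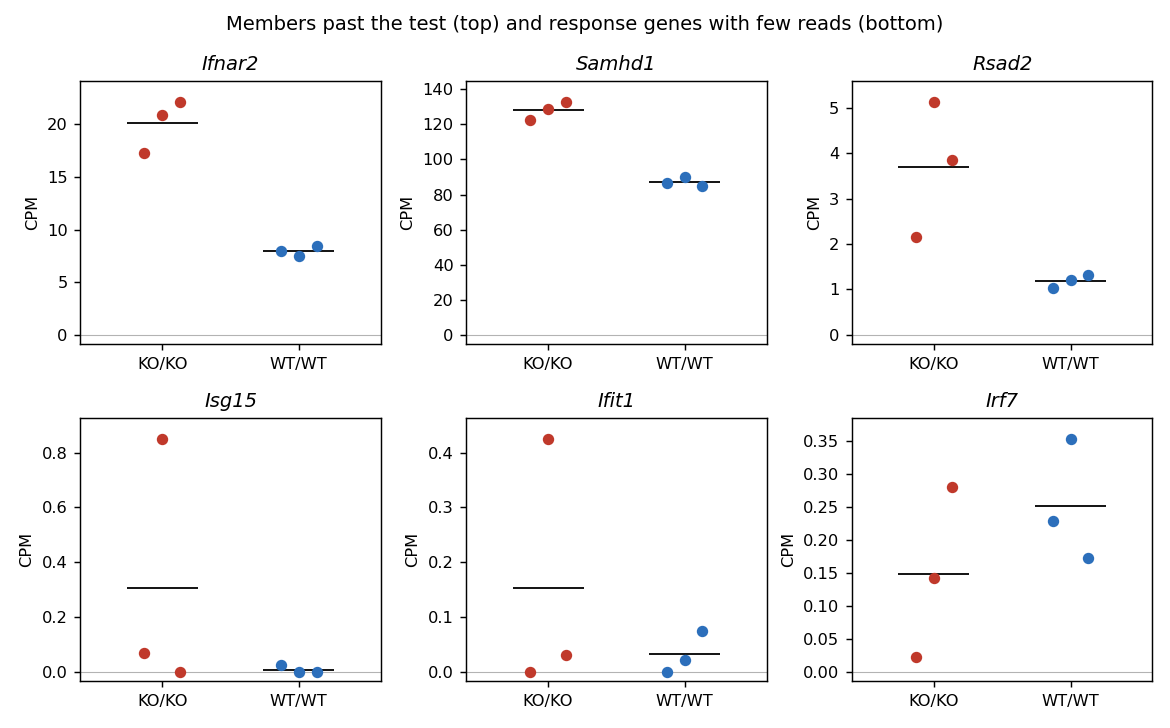
The CPM of 6 genes in each library, on a linear axis for each gene, KO/KO left of WT/WT, with a point per library and a line at the mean. The top panels, Ifnar2, Samhd1 and Rsad2, have KO/KO libraries above all WT/WT libraries, and in the bottom panels Isg15 and Ifit1 are set by KO/KO replicate 2 while Irf7 overlaps.

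Other effectors were measurable but lay on both sides of WT/WT. Oasl2, the most abundant effector by CPM, is a relative of the oligoadenylate synthetases and had 7.68, 12.3 and 7.19 CPM in KO/KO and 14.0, 15.0 and 8.87 CPM in WT/WT (log2 fold change -0.48, SE 0.25, edgeR adjusted p = 0.240). The genotypes overlapped, and without KO/KO replicate 2 the edgeR adjusted p was 0.0485. Bst2, the most abundant effector per length, encodes tetherin, which holds budding viruses at the cell surface. It had 3.15, 4.07 and 4.79 CPM in KO/KO and 2.47, 2.31 and 2.77 CPM in WT/WT. Its libraries did not overlap, but the log2 fold change of 0.68 (SE 0.22) had an edgeR adjusted p of 0.0735, and it was called by DESeq2 and without KO/KO replicate 1. Ifit2 had 1.16, 2.29 and 3.07 CPM in KO/KO and 1.51, 1.02 and 0.613 CPM in WT/WT, with an edgeR adjusted p of 0.126, and of 0.0416 without KO/KO replicate 1.

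Oasl1, which represses translation of Irf7, had 0.268, 0.567 and 1.10 CPM in KO/KO and 1.69, 1.25 and 1.30 CPM in WT/WT, a log2 fold change of -1.10 (SE 0.46, edgeR adjusted p = 0.144). Mx2 had 0.983, 0.831 and 0.791 CPM in KO/KO and 1.55, 2.04 and 1.15 CPM in WT/WT, a log2 fold change of -0.87 (SE 0.31, edgeR adjusted p = 0.0966). For both, the highest KO/KO library was below the lowest WT/WT library, and neither passed the test. Without KO/KO replicate 3 Oasl1 was called, with an edgeR adjusted p of 0.0309. The Mx2 relative Mx1, a GTPase that blocks influenza virus in strains with an intact allele, stood at 1.34 ± 0.716 CPM in KO/KO and 1.12 ± 0.133 CPM in WT/WT (SD, n = 3 each). Oas1a, which has near-identical copies such as Oas1g, stood at 1.29 ± 0.472 CPM in KO/KO and 0.845 ± 0.287 CPM in WT/WT. Usp18, which removes ISG15 from its targets, Xaf1 and Rtp4 had at most 0.411 CPM in any library, with edgeR adjusted p between 0.433 and 0.840.

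Genes that edit or clear the cell's own nucleic acids, and so limit what the sensors meet, gave 1 rise in 3. Over all genes tested 8.33% were higher and 6.42% lower, and a share of 3 genes says little about the role. Samhd1 (chr2:157097533-157135265, minus strand, GRCm38) encodes a dNTP hydrolase that restricts retroviruses. It had 122, 129 and 133 CPM in KO/KO and 86.7, 89.9 and 84.6 CPM in WT/WT, fully separated, with a log2 fold change of 0.55 (SE 0.08, edgeR adjusted p = 0.00175). Per length it was the most abundant of the 33 genes in KO/KO, at 14.0 CPM per kb of exon, and stood at 9.52 CPM per kb in WT/WT, behind Ifnar1, Irf1 and Adar. Of its measured neighbours, Soga1 was also called (0.48, SE 0.13, edgeR adjusted p = 0.0403) while Rbl1 (0.16, edgeR adjusted p = 0.507) and Mroh8 (-0.89, SE 0.55, edgeR adjusted p = 0.311) were not.

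Adar, the enzyme that converts adenosine to inosine in double-stranded RNA and keeps it from MDA5, had 72.3, 71.1 and 70.4 CPM in KO/KO and 81.1, 81.8 and 83.8 CPM in WT/WT. The libraries did not overlap, and the log2 fold change of -0.21 (SE 0.08) had an edgeR adjusted p of 0.0985. Exons of Chrnb2 on the opposite strand cover 16.8% of its exon bases, and no source used here says whether strand was used in counting. Trex1, which degrades cytoplasmic DNA, had 2.08, 2.05 and 2.06 CPM in KO/KO and 1.67, 1.79 and 1.62 CPM in WT/WT (0.29, SE 0.23, edgeR adjusted p = 0.446). All of its exon bases lie under exons of Atrip on the same strand, so reads of these 2 genes cannot be told apart.

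Per length, the receptor and clearance genes led the 33 genes in both genotypes. Ifnar1 stood at 14.0 CPM per kb of exon in KO/KO and 14.1 in WT/WT, Irf1 at 8.85 in KO/KO and 10.8 in WT/WT, and Adar at 8.78 in KO/KO and 10.1 in WT/WT. Ifnar2 was seventh in KO/KO, at 6.04 CPM per kb, and ninth in WT/WT, at 2.40. Rsad2 stayed low in both, at 0.855 CPM per kb in KO/KO and 0.273 in WT/WT. Within KO/KO the highest effector level was in replicate 2 for 7 of the 16 effectors, in replicate 3 for 6 and in replicate 1 for 2, and Ifit3 had no read in any of them. In bulk RNA fewer cells with a transcript and less transcript per cell cannot be told apart.

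The rest of the pathway was read from 126 further genes in 5 lists. The ligands were at or near 0 reads. Of 21 interferon genes, 19 had no read in any library, among them Ifnb1, Ifng and Ifne, which allows at most 0.0189 CPM over the KO/KO libraries and 0.0226 CPM over the WT/WT libraries, taken as 3 counts of each group's total and covering counting error only. Ifna1 had 1 read in 1 WT/WT library, and Ifnk had no read in KO/KO and 3 in each WT/WT library.

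Of the 126 genes, 92 were tested, 24 rose and 5 fell, which is 26.1% and 5.43% against the 8.33% and 6.42% of all genes tested. The lists were chosen with earlier results of these data known, so these shares describe the lists and are not an independent test. The median log2 fold change of the 92 was 0.19. When WT/WT replicate 2 was left out 10 of them rose, and when replicate 3 was left out 14 rose, while 814 and 892 of all genes were higher in these fits. Of the 29 called genes, 13 kept the call in every alternative that tested them.

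**Figure D4:**
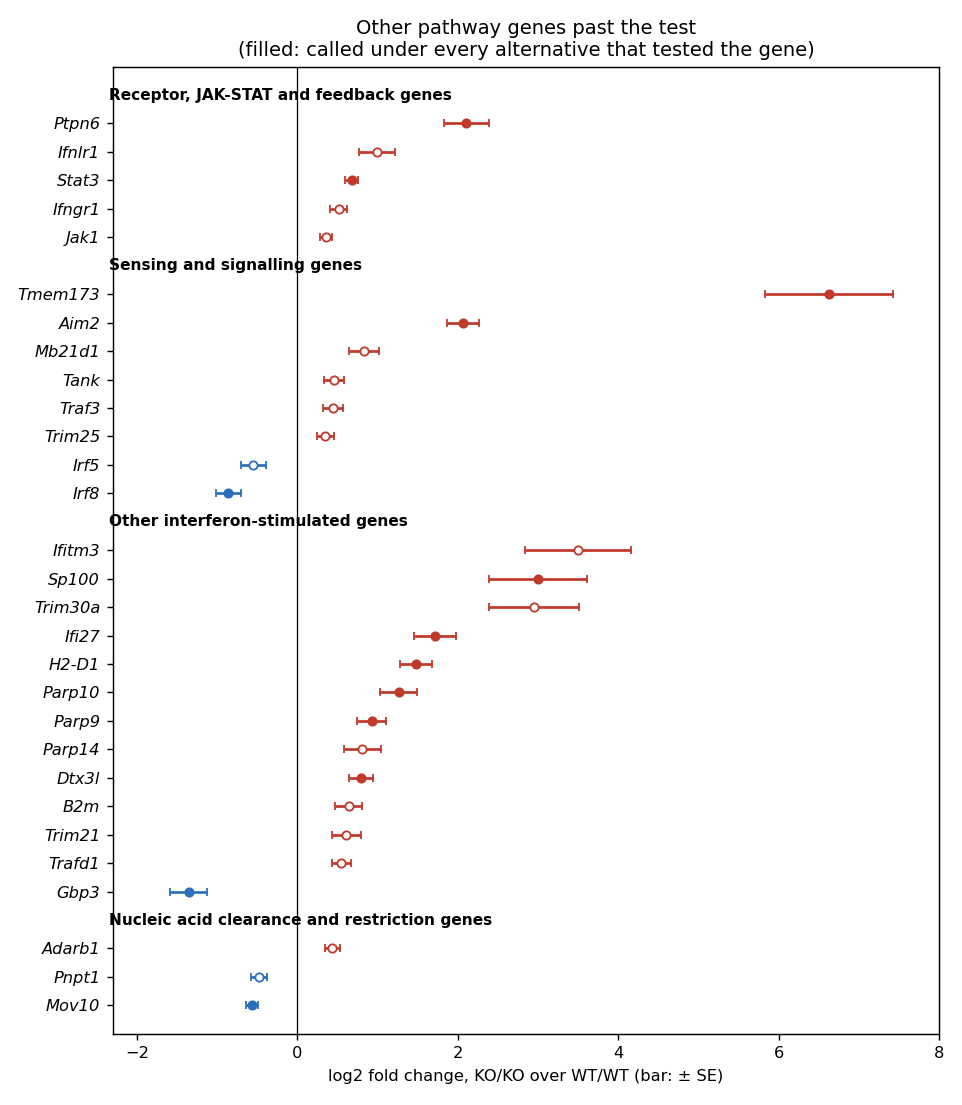
The log2 fold change, KO/KO over WT/WT, of the 29 other pathway genes past the edgeR test, by list, with bars of ± 1 SE; red points rose, blue points fell, and filled points were called under every alternative that tested the gene. Of the 29, 24 lie to the right of 0, and the fitted value of Tmem173, with 1 read in WT/WT, depends on the prior count of the fit.

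In the list of receptor, JAK-STAT and feedback genes, 5 of 15 rose, or 33.3%, and none fell, against 8.33% and 6.42% of all genes tested. None was lower at an unadjusted p under 0.05 and none was called lower by DESeq2 or limma-voom. Stat3, which carries signals of cytokines such as interleukin-6, had 118, 134 and 122 CPM in KO/KO and 75.9, 80.8 and 77.2 CPM in WT/WT (0.68, SE 0.08, edgeR adjusted p = 0.00101). Ptpn6, the phosphatase SHP-1 that damps cytokine signals, had 5.03, 10.6 and 9.94 CPM in KO/KO and 1.87, 2.10 and 1.99 CPM in WT/WT (2.10, SE 0.28, edgeR adjusted p = 0.00162). Ifngr1, Ifnlr1 and Jak1, receptors of interferon gamma and lambda and a kinase bound to them, rose with log2 fold changes of 0.51, 0.99 and 0.36 and lost the call in at least 1 alternative.

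In the list of sensing and signalling genes, 6 of 23 tested rose and 2 fell, or 26.1% and 8.70%, against 8.33% and 6.42% of all genes. DNA sensors were among those that rose. Aim2, which builds an inflammasome on cytoplasmic DNA, had 11.1, 13.3 and 12.8 CPM in KO/KO and 2.69, 2.47 and 3.75 CPM in WT/WT (2.07, SE 0.20, edgeR adjusted p = 0.000346). Tmem173, which encodes STING, the adaptor of the cGAS pathway, had 161 reads over the 3 KO/KO libraries, between 0.669 and 1.22 CPM, and 1 read in WT/WT. The ratio of these rates was 135 (95% exact interval 23.8 to 5356, counting error only; edgeR adjusted p = 0.00101). Mb21d1, which encodes cGAS, the enzyme that signals to STING, had 10.6, 7.15 and 9.68 CPM in KO/KO and 5.0, 5.34 and 5.05 CPM in WT/WT (0.83, SE 0.18, edgeR adjusted p = 0.0153), and lost the call in at least 1 alternative. Traf3, Tank and Trim25, signalling partners of the RNA helicases, rose with log2 fold changes between 0.35 and 0.45 and lost the call in some alternatives. Irf8, a factor of myeloid cells, fell to 4.78, 5.86 and 6.09 CPM in KO/KO, against 10.5, 9.64 and 10.3 CPM in WT/WT (-0.86, SE 0.16, edgeR adjusted p = 0.00698), and Irf5 fell by 0.55 on the log2 scale (edgeR adjusted p = 0.0418), a call lost in 7 of the 12 alternatives.

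In the list of other interferon-stimulated genes, 12 of 42 tested rose and 1 fell, or 28.6% and 2.38%, against 8.33% and 6.42% of all genes. Ifi27 had 15.1, 16.2 and 28.7 CPM in KO/KO and 5.55, 5.21 and 7.62 CPM in WT/WT (1.71, SE 0.26, edgeR adjusted p = 0.00281). Parp9 and Dtx3l, which encode partners in 1 ADP-ribosylation and ubiquitin complex, rose with log2 fold changes of 0.93 (SE 0.18) and 0.80 (SE 0.15) and edgeR adjusted p of 0.00950 and 0.00718. Their starts overlap on opposite strands of chromosome 16, with 9.40% of the exon bases of Parp9 under exons of Dtx3l. Parp10 had 12.8, 18.3 and 16.6 CPM in KO/KO and 8.49, 6.77 and 4.63 CPM in WT/WT, and Parp14, of the same enzyme family, rose with a log2 fold change of 0.81 (SE 0.23, edgeR adjusted p = 0.0412), a call lost without KO/KO replicate 2, WT/WT replicate 2 or WT/WT replicate 3. H2-D1, a class I antigen-presenting molecule, had 5.65, 7.60 and 8.61 CPM in KO/KO and 2.60, 2.7 and 2.55 CPM in WT/WT (1.48, SE 0.20, edgeR adjusted p = 0.00184), though its close relative H2-K1 makes such counts uncertain. Sp100, a nuclear body protein, had 0.894, 1.72 and 1.04 CPM in KO/KO and 0.0228, 0.228 and 0.196 CPM in WT/WT (3.00, SE 0.61, edgeR adjusted p = 0.0105).

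B2m, the light chain of class I molecules, the antibody receptor Trim21 and Trafd1 rose with log2 fold changes between 0.55 and 0.64, and Trim30a and Ifitm3 rose on few reads. All 5 lost the call in at least 1 alternative. Ifitm3, which blocks virus entry, had 73 reads in KO/KO and 5 in WT/WT, and Trim30a had 98 reads in KO/KO and 10 in WT/WT. Gbp3, a guanylate-binding protein, fell to 2.26, 2.84 and 2.20 CPM in KO/KO, against 7.08, 6.96 and 4.63 CPM in WT/WT (-1.36, SE 0.23, edgeR adjusted p = 0.00449). Among clearance and restriction genes 1 of 12, the RNA editing enzyme Adarb1, rose (0.44, SE 0.10, edgeR adjusted p = 0.0155, lost in at least 1 alternative) and 2 fell. These shares are 8.33% higher and 16.7% lower, against 8.33% and 6.42% of all genes tested. Mov10, a helicase that restricts retroelements, had 94.2, 93.3 and 86.8 CPM in KO/KO and 140, 131 and 136 CPM in WT/WT (-0.57, SE 0.08, edgeR adjusted p = 0.00164). Pnpt1, a mitochondrial RNA exonuclease, fell by 0.48 on the log2 scale (SE 0.10, edgeR adjusted p = 0.0107) and lost the call in at least 1 alternative.

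Several of the genes that rose are known above all from immune and vessel cells, so markers of those cells were read in the same libraries. Beside the counts of markers called, 8.33% of all genes tested were higher and 6.42% lower. Macrophage and monocyte markers summed to between 9.76 and 14.2 CPM in KO/KO and between 10.1 and 11.5 CPM in WT/WT. Of 12 such markers 4 were tested, Cd68 and Fcgr3 rose and Mrc1 fell, and Mrc1 lost the call in at least 1 alternative. The defining Adgre1 had no read in KO/KO and 1 in WT/WT. Lyz2, C1qa, C1qb and C1qc had at most 3 reads in any library. Lymphocyte markers summed to between 1.30 and 2.57 CPM in KO/KO and between 1.14 and 1.62 CPM in WT/WT, with Cd79a the 1 of 2 tested that rose. Cd79a lost the call in at least 1 alternative. Endothelial markers moved most, with sums between 120 and 159 CPM in KO/KO and between 33.7 and 40.3 CPM in WT/WT. Of 7 tested, Cdh5, Kdr, Flt1 and Vwf rose, while Pecam1, Tek and Cldn5 missed the threshold. Cldn5 had 0.402, 0.466 and 0.434 CPM in KO/KO and 0.228, 0.104 and 0.0245 CPM in WT/WT, without overlap (edgeR adjusted p = 0.0914). The defining Emcn, not tested, had 1, 0 and 0 reads in KO/KO and 6, 3 and 0 reads in WT/WT. The part of these cells in the rises of the pathway genes was not tested.

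Markers of the testicular somatic cells were present in both genotypes. Sertoli markers summed to between 426 and 638 CPM in KO/KO and between 395 and 611 CPM in WT/WT, and 1 of 12, the X-linked homeobox gene Rhox5, rose. Peritubular and stromal markers summed to between 49.5 and 70.9 CPM in KO/KO and between 88.3 and 133 CPM in WT/WT, and 2 of 9 tested, Col1a1 and Pdgfra, fell. Pdgfra lost the call in at least 1 alternative. Leydig markers summed to between 3.57 and 7.24 CPM in KO/KO and between 6.58 and 16.0 CPM in WT/WT, with none of 3 tested called by edgeR, DESeq2 or limma-voom. The part of somatic cells in the results was likewise not tested.

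The repeat families, whose transcripts are 1 kind of self nucleic acid that could trigger viral mimicry, were also counted in these libraries. They took 15.5%, 15.1% and 15.1% of all counts in the KO/KO libraries and 14.7%, 14.9% and 14.1% in the WT/WT libraries. Of 1159 families tested with the genes, none was higher and 1, or 0.0863%, was lower (edgeR, adjusted over the families). At an unadjusted p under 0.05, 50 were higher and 24 lower, with 99 higher and 18 lower without KO/KO replicate 3, 39 higher and 12 lower without WT/WT replicate 1, 33 higher and 15 lower without WT/WT replicate 2, and 23 higher and 24 lower without WT/WT replicate 3. DESeq2 called 4 higher and 4 lower, and limma-voom called none higher and 2 lower. The median log2 fold change over the families was 0.02.

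The family that fell was IAPEy-int, an intracisternal A particle retrovirus, at 9.27, 5.90 and 5.81 CPM in KO/KO, against 35.1, 37.2 and 35.8 CPM in WT/WT (-2.37, SE 0.18, edgeR adjusted p = 0.000173). IAPEz-int, a more abundant family of that kind, had 407, 452 and 407 CPM in KO/KO and 379, 371 and 354 CPM in WT/WT (0.20, SE 0.07, edgeR adjusted p = 0.575). These libraries did not overlap, as for 9.15% of families with KO/KO above and 5.69% with KO/KO below. MMERVK10C-int, a retrovirus of the same class, had 319, 319 and 289 CPM in KO/KO and 403, 447 and 646 CPM in WT/WT (-0.69, SE 0.15, edgeR adjusted p = 0.207). MERVL-int, a retrovirus known from early embryos, stood at 357 ± 31.5 CPM in KO/KO and 358 ± 8.60 CPM in WT/WT (SD, n = 3 each).

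L1MdTf_I, a young LINE-1 family, had 964, 877 and 1935 CPM in KO/KO and 861, 881 and 858 CPM in WT/WT, so KO/KO replicate 3 alone stood apart (edgeR adjusted p = 0.766). For L1MdTf_III, L1MdF_I, ETnERV-int and ETnERV2-int every KO/KO library was above every WT/WT library, as for IAPEz-int. Their log2 fold changes lay between 0.19 and 0.58 and their edgeR adjusted p between 0.467 and 0.655. Among the families plotted, IAPEy-int and MMERVK10C-int had every KO/KO library below every WT/WT library. The plotted families were picked by name, so they do not stand for all families tested. Of those, 9.15% had KO/KO above and 5.69% had KO/KO below without overlap. How reads that map to several places were counted bears on every repeat family, and is not stated in the labels or headers.

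**Figure D5:**
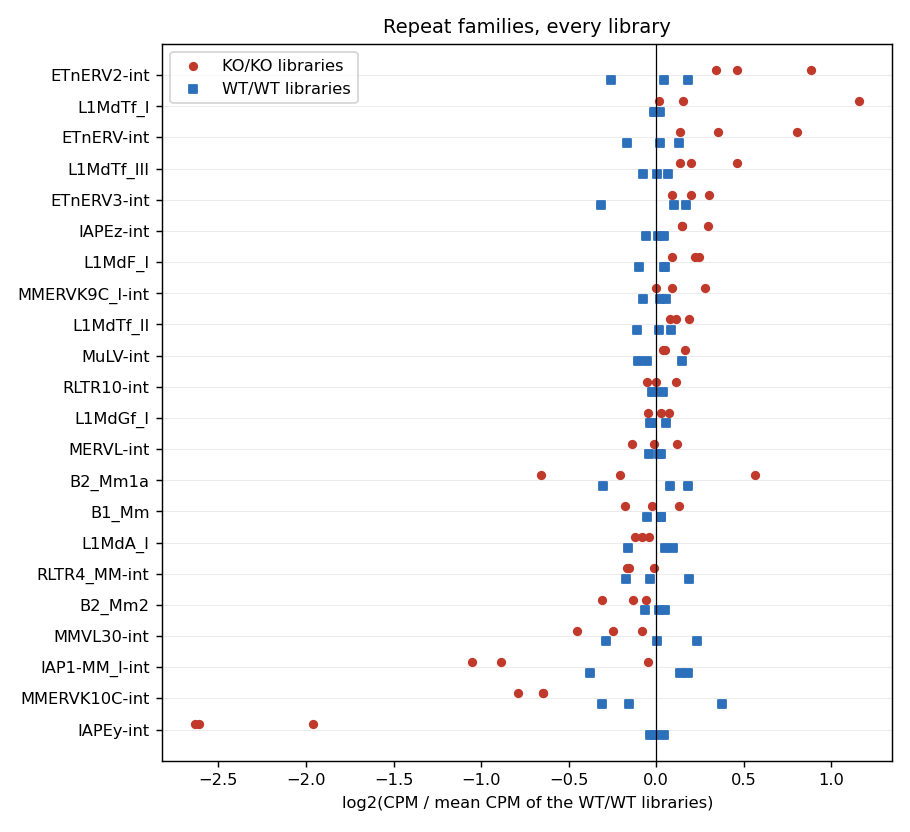
The log2 ratio of the CPM in each library to the mean CPM of the WT/WT libraries for 22 retrovirus, LINE-1 and SINE families, with KO/KO as red circles above WT/WT as blue squares. The circles of IAPEy-int lie far to the left of its squares, and 1 circle of L1MdTf_I lies alone to the right.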

How the data were processed

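Each of the 6 deposited tables gives raw counts of reads per gene and repeat family, not normalized. The authors' tools were STAR 2.7.0a for alignment and featureCounts 1.5.1 for counting, with mm10 as the build, per the submitters' processing notes. Per the labels' protocols, RNA was isolated with PicoPure columns, DNase-treated and sequenced as stranded SMARTer total RNA libraries. No source used here names the annotation release, the strand option or the rule for reads with several alignments, so overlapping genes, close copies and repeats are uncertain. A table has 55292 rows, 54087 of genes and 1205 of repeat families.

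Genotype was the only term of the edgeR 4.0.16 quasi-likelihood fit (R 4.3.3), which used TMM factors and the filterByExpr filter. P-values are two-sided, adjusted by Benjamini-Hochberg over all genes tested, with a threshold of 0.05, and the members' rows were read from that table. CPM used gene totals and TMM factors, and the SE is the size of the log2 fold change divided by the square root of F. Repeat families entered the same fit as the genes, and their p-values were adjusted over families. The fit was tried on counts simulated from dispersions estimated in these data, which is a check of the calculation only. Ratios of near-empty genes have exact 95% binomial intervals, which cover counting error only. Gene positions and exon overlaps are those of GENCODE M21 on GRCm38, the assembly that mm10 names, and promoters those of RefSeq on GRCm38.p6. Plots used matplotlib 3.10.9 under Python 3.11.15.

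The 33 members, the pathway and marker lists and the alternatives were chosen with earlier results of these data known. Named with values in every library were members past the test, the most abundant in each role and the receptor, sensor and factor genes of an interferon response, and of the pathway lists the genes past the test, some of them by fold change alone. Alternatives were RLE factors, no filter, at least 1 CPM in 3 libraries, DESeq2 1.42.0, limma-voom (limma 3.58.1), replicate number as a block, and leaving out each library. A gene of the pathway lists is counted in them but not reported here by name.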

Additional observations from a re-analysis of the deposited data

How the results depend on the processing

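Ifnar2, Samhd1 and Rsad2 kept their direction and their call under all 12 alternatives, and 18 of the 27 members tested were called under none. With no filter on low counts, 6 of 33 members were higher, Ifit2, Isg15 and Tlr3 with the 3 named, and 1, Oasl1, was lower. Of all genes in that fit, 7.04% were higher and 5.24% lower. Leaving out each library gave between 3 and 6 members higher and between 0 and 2 lower. For all genes it gave between 814 and 1985 higher and between 560 and 1380 lower, and for the other pathway genes between 10 and 26 higher and between 3 and 7 lower. The count of changed repeat families was 14 with no filter, 8 with DESeq2, 2 with limma-voom and between 1 and 4 when a library was left out. The cause was not tested.

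Among members not called, 6 changed sign when a library was left out. Their log2 fold changes then ran between -0.27 and 0.54 for Mx1, between -0.66 and 0.21 for Rtp4, between -0.061 and 0.22 for Dhx58, between -0.042 and 0.042 for Ifnar1, between -0.091 and 0.013 for Irf3 and between -0.14 and 0.12 for Irf9.

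The deviations of libraries with the same replicate number had correlations of -0.09, 0.04 and 0.02. For libraries with unlike numbers the correlations ran between -0.16 and 0.15. These values show no pairing by number but cannot exclude a weak one, and the labels do not say whether the numbers pair the samples. With the replicate number as a block, 1467 genes were higher and 1107 lower, members stayed at 3 higher and 0 lower, the other pathway genes at 20 higher and 4 lower, and 1 repeat family changed. Depth limits what can be said of Isg15, Ifit1, Ifit3, Oas2, Ifi44 and Zbp1, which did not pass the filter, and of the ligand genes.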
